A study of Mus musculus with 4 samples.

Results

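Proximal chromosome 15, the first 50 Mb of the mouse chromosome in the mm10 build, was described through the regions enriched for H3K27me3 that were listed there. Members were the unique peak intervals of 2 lists with a midpoint below 50 Mb of chromosome 15. They numbered 1197 in the irradiated list and 1183 in the control list, 2380 of 25957 intervals in all. The samples were GL261 cells, a mouse glioblastoma line grown in culture, labelled IR, which the title of the series lets one read as irradiated, or Con for control. Each condition had 1 H3K27me3 chromatin immunoprecipitation (ChIP-seq) library, whose peak list was used, and 1 input library, not analysed here by itself. Neither a radiation dose nor a harvest time is given in the sources used here. Expression was not measured, so the identity of the line was not checked against markers. With 1 library per group there is no replicate error and no p-value between conditions. All intervals are exact 95% intervals and cover counting error only. The segment was chosen by the number of peaks that each list holds in it, so those numbers are a description.

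H3K27me3 is the trimethylated lysine 27 of histone H3, written by the EZH enzymes of Polycomb repressive complex 2 and associated with silent genes. In many mammalian cells the complex is drawn to CpG-rich promoters of inactive developmental genes, and the mark can also spread at low density over gene-poor chromatin. Proximal chromosome 15 carries receptor genes for growth hormone, prolactin and cytokines of the interleukin 6 family, a long gene-poor stretch with type II cadherins, and many widely expressed genes.

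Few peaks of either list lay near transcription starts. Within 1 kb of a start lay 14 irradiated peaks (1.17%) and 11 control peaks (0.930%). Start windows were still met more often here than over the whole genome. Of 216 windows of 300 bases around starts (250 before and 50 after, from RefSeq on GRCm38.p6, the assembly of mm10), 7 met an irradiated peak and 7 a control peak, with 5 met by both. That is 3.24% of the windows in each list, where over the whole genome 0.484% of 32851 windows met an irradiated peak and 0.283% a control peak. The windows covered 82 of the 154 protein-coding genes of the segment, with 102 windows. Beyond Sema5a (32 to 33 Mb) the only protein-coding gene with a window was 9330182O14Rik, so the result hardly covers coding genes there. Windows were not independent, as 3 of the 5 met by both lists belonged to Gm35081, and those that overlapped each other met the same peaks. The 9 windows met by either list belonged to 6 genes, of which 5 were long noncoding RNA genes with provisional names, and the other was Dnah5. The sequences of 3 such windows, and of 1 CpG-rich window without a peak, are shown as examples of both kinds. Capitals mark CG dinucleotides, which read the same on both strands, and each line runs 5′ to 3′ on the plus strand of mm10.
Gm30559, chr15:7010722-7011021: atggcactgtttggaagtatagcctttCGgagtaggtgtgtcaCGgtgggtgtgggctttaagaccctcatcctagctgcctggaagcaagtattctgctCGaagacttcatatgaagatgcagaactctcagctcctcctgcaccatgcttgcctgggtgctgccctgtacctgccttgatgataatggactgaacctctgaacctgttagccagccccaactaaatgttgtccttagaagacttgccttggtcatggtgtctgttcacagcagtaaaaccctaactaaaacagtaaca
Gm41263, chr15:7442687-7442986: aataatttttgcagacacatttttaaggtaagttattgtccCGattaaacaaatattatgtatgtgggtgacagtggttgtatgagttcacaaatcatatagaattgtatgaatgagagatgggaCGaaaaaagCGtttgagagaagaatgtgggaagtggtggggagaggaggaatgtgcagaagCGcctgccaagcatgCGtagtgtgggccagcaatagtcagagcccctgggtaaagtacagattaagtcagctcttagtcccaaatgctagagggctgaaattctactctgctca
Dnah5, chr15:28203516-28203815: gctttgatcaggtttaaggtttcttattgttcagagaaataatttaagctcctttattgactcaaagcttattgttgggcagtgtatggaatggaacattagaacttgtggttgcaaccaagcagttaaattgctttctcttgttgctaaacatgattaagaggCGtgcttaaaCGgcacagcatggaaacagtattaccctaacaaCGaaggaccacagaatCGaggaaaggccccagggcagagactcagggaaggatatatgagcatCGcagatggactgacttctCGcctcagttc
Lifr, chr15:7129322-7129621: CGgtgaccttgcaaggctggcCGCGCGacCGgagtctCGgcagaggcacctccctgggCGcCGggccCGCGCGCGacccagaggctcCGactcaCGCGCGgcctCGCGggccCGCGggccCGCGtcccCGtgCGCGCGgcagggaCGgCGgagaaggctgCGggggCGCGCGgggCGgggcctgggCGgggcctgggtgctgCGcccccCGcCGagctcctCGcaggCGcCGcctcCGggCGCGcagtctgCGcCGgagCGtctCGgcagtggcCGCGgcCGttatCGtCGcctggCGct

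The Gm30559 window, in a long noncoding RNA gene between Osmr and Lifr, held 3 CG. It lay under an irradiated peak of 15 reads (fold 4.47, q 0.0157) and a control peak of 17 reads (fold 5.13, q 0.00323). The Gm41263 window, in a gene next to Egflam, held 5 CG and an irradiated peak of 15 reads (fold 5.14, q 0.00357), while its control peak had 10 reads (fold 2.40, q 1). The Dnah5 window, at a start inside the gene, held 6 CG and a control peak of 17 reads (fold 3.84, q 0.0959), with the nearest irradiated peak 0.208 kb away. The Lifr window held 53 CG, a number reached by 0.451% of all windows, whereas at least 3 CG stand in 76.7%. The nearest irradiated peak lay 5.24 kb from it and the nearest control peak 5.45 kb. The windows met by a peak held 1 to 6 CG (median 3), against a median of 6 (quartiles 2 and 19.5) in the 207 windows without one. Of the 72 windows with at least 10 CG, 0 met a peak of either list, which allows a share of up to 4.17%, a limit above the 3.24% of all windows met in each list. Of the 102 windows of protein-coding genes, 0 met an irradiated peak and 1 a control peak. Windows with and without a peak thus also differed in gene type. No start window was available for the developmental transcription factor genes Osr2, Grhl2, Klf10 and Zfpm2, so they are not among these counts. Pdzd2, Egflam and Basp1, rich in peaks over their length, had start windows of 22 to 38 CG that lay 4.26 to 7.09 kb from the nearest irradiated peak and 6.18 to 8.29 kb from the nearest control peak.

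**Figure D1:**
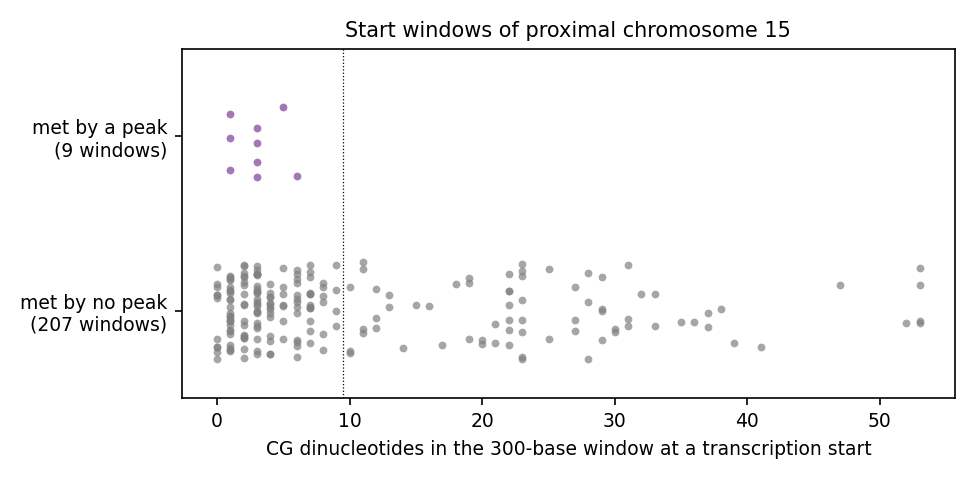
CG dinucleotides (x axis, count) in each 300-base start window available for proximal chromosome 15, one point per window, with vertical scatter for visibility only. The dotted line sets apart windows of at least 10 CG; all 9 windows met by a peak lie left of it, and 72 of the 207 others lie right of it.

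Most peaks lay outside protein-coding genes. Of irradiated peaks 355 (29.7%, 27.1 to 32.3) lay in a protein-coding gene, and of control peaks 347 (29.3%, 26.7 to 32.0), in a segment of which such genes cover 36.9% beyond 3 Mb. Outside any annotated gene lay 675 irradiated peaks (56.4%) and 665 control peaks (56.2%). The median distance from a summit to the nearest start was 49.96 kb in the irradiated list and 71.8 kb in the control list. Exons and introns were not resolved by the gene table.

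The lists were nearly equal in length here, unlike in the rest of the genome. Irradiated peaks made up 50.3% (48.3 to 52.3) of the peaks of proximal chromosome 15, 60.3% (58.5 to 62.1) of those of the distal part of the chromosome, and 63.2% (62.6 to 63.8) of those outside the proximal part. The segment held 7.44% (7.04 to 7.86) of the irradiated list and 11.99% (11.4 to 12.6) of the control list. The near equality was seen with weak peaks included. At a −log10 p of at least 5, 430 irradiated and 173 control peaks were left, an irradiated share of 71.3% (67.5 to 74.9), against 81.2% (80.1 to 82.3) in the rest of the genome. At a q, the p adjusted over the genome, of at most 0.05 the share was 74.0% (69.2 to 78.5), against 79.0% (77.4 to 80.5). With the 9866 strongest peaks of each list it was 41.9%, against 50.9%. These shares describe the segment, which was chosen on its peak numbers, and at the q threshold the intervals overlap.

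Peaks were weak and rested on few reads. From the deposited fold and p, a summit was found to rest on 12 ChIP reads at the median of the irradiated list (quartiles 10 and 14, highest 31) and on 10 at that of the control list (quartiles 9 and 12, highest 25). The fold over the background estimated by the authors' caller was 3.84 at the median of the irradiated list (quartiles 3.31 and 4.38) and 3.43 at that of the control list (3.11 and 3.91). Outside the segment the median was 3.65 in the irradiated and 3.43 in the control list. The lists were scaled separately, and the fewest reads of a peak at the lowest background were 8 in the irradiated list and 7 in the control list. Of irradiated peaks 268 (22.4%, 20.1 to 24.9) had a q of at most 0.05, where 15.2% of the whole irradiated list did. Of control peaks 94 (7.95%, 6.47 to 9.64) did, where 6.84% of the whole control list did. The median width was 389 bp in the irradiated and 372 bp in the control list. A background of more than 1.5 times the lowest lay under 30.9% of irradiated peaks (26.0% elsewhere, 34.1% on distal chromosome 15) and 18.7% of control peaks (14.4% elsewhere, 17.3% on distal chromosome 15), and its part in the peak numbers was not tested.

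The irradiated peaks stood in fewer and denser places than the control peaks. Counted in 1 Mb bins from 3 Mb on, where the first peaks lie, the median bin held 9 irradiated and 15 control peaks, and the fullest 105 irradiated and 90 control peaks. The 7 fullest bins held 50% of the irradiated peaks, while 10 were needed for 50% of the control peaks. Irradiated peaks were the more numerous in 13 of 47 bins (27.7%), where 56.4% of such bins in the whole genome hold more irradiated peaks. In 33 bins the control peaks were the more numerous, and 1 bin had equal numbers. With peaks of a −log10 p from 5 upward the order turned, with 30 of 42 bins in favour of the irradiated list and 10 of the control list. The share of such bins in the whole genome was not computed at this threshold. Irradiated peaks then made up 71.3% of the peaks of the segment and 81.2% of those outside it, so the turn is not particular to the segment by these values. No irradiated peak stood in 9 bins (19.1%), where 17.4% of such bins in the whole genome have none; every bin had a control peak. Across the 47 bins the counts of the lists had a Spearman correlation of 0.854, a description over bins that share the same 2 libraries.

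The 8 fullest bins lay in blocks around 10 to 13 Mb, 25 to 28 Mb, 7 to 8 Mb and 31 to 32 Mb. The bin of Marchf11 and Fbxl7 (26 to 27 Mb) held 88 irradiated and 90 control peaks, and the next one, with Ank and Trio, 105 irradiated and 65 control peaks. Between 11 and 12 Mb, around Adamts12 and Npr3, stood 95 irradiated and 67 control peaks, and between 12 and 13 Mb, around Pdzd2, 99 irradiated and 48 control peaks. The bin of Lifr and Egflam (7 to 8 Mb) held 84 irradiated and 75 control peaks. The bins at 31 to 32 Mb, 10 to 11 Mb and 25 to 26 Mb held 74 irradiated and 55 control, 55 irradiated and 70 control, and 68 irradiated and 53 control peaks, in that order of bins. Among 29 bins with at least 15 peaks, the highest irradiated share was 69.7% (60.2 to 78.2), at 36 to 37 Mb around Rgs22, with 76 irradiated and 33 control peaks. The bin of Pdzd2 followed with 67.3% (59.1 to 74.8) and that of Odf1 and Klf10 (38 to 39 Mb) with 65.4% (50.9 to 78.0). The lowest shares were 0 of 17 peaks at 13 to 14 Mb around Cdh6, 3 of 18 at 41 to 42 Mb around Oxr1, and 4 of 16 at 29 to 30 Mb, a bin without a protein-coding gene.

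**Figure D2:**
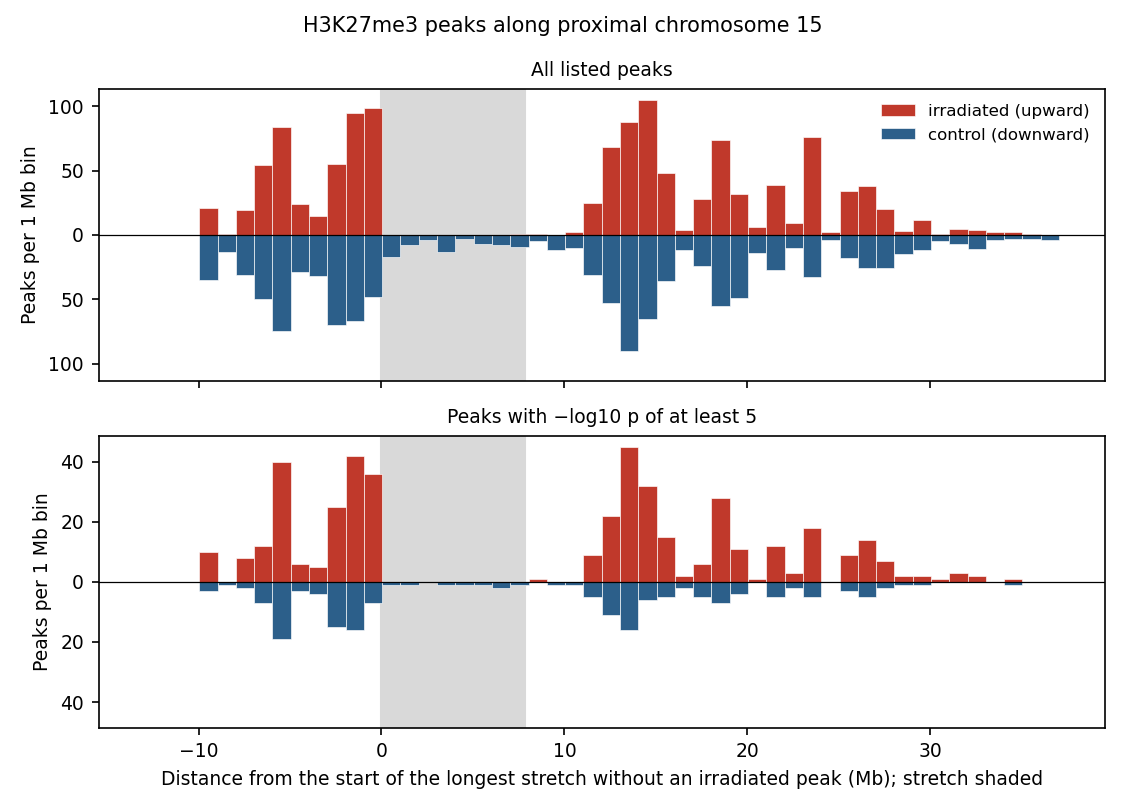
Peaks per 1 Mb bin (y axis, irradiated upward and control downward) against the distance in Mb from the start of the longest stretch without an irradiated peak, which is shaded, for all peaks (top) and for peaks with a −log10 p of at least 5 (bottom). Both lists share the same blocks, and within the shaded stretch the irradiated list is empty while 71 control peaks, 8 of them past the stricter threshold, stand there.

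The longest stretch between neighbouring irradiated peaks was gene-poor and held cadherin genes. Between 12960570 and 20799976 (7.84 Mb) no irradiated peak was listed, by the choice of the stretch, while 71 control peaks, 9.06 per Mb, stood there. It holds the protein-coding genes Cdh6, Cdh9, Cdh10 and Acot10. Over 13 to 24 Mb, a segment chosen after its values were seen, the irradiated list held 4 peaks and the control list 96, an irradiated share of 4.00% (1.10 to 9.93). Of these 96 control peaks, 1 overlapped an irradiated peak. Their median fold was 3.43 and their median read number 10, like those of all control peaks of proximal chromosome 15. With at least 10 reads required in both lists, 3 irradiated and 49 control peaks were left in the segment, against 1036 irradiated and 722 control peaks in the remainder of proximal chromosome 15. At a −log10 p of at least 5 it held 1 irradiated and 10 control peaks, against 429 irradiated and 163 control peaks in the remainder. The longest stretch without a control peak, 47573910 to 48880702 within and beside Csmd3, was shorter at 1.31 Mb and held 1 irradiated peak.

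The blocks on either side had much higher densities. From 3 to 13 Mb there were 46.7 irradiated and 45.0 control peaks per Mb, and from 24 to 41 Mb 40.9 irradiated and 33.7 control peaks per Mb. From 41 to 50 Mb, where Oxr1, Angpt1, Rspo2 and Csmd3 lie, both lists thinned, to 3.33 irradiated and 7.11 control peaks per Mb. These limits were also chosen after the values were seen.

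Over the whole segment the irradiated peaks followed each other more closely than the control peaks, as they did in the rest of the genome. The median distance to the next peak was 3597.5 bp in the irradiated and 9639 bp in the control list. In the rest of the genome it was 11743.5 bp in the irradiated and 33256 bp in the control list. There, 36.5% of irradiated and 23.3% of control peaks had a next peak within 5000 bp. On proximal chromosome 15 a neighbour within 5000 bp followed 56.8% of irradiated and 38.2% of control peaks. Joined at that distance, the irradiated peaks formed 57 groups of at least 5 peaks, which held 459 of them, and the control peaks 31 groups, which held 208. The largest irradiated group had 32 peaks in 48.8 kb at 12744403 to 12793249, starting 4.44 kb from Pdzd2, where 8 control peaks stood. Others were 21 irradiated peaks in 42.4 kb near Ank (27416539 to 27458976, with 10 control peaks) and 18 at Gm30559 (6978799 to 7019987, with 11 control peaks). The largest control group, at 10927943 to 10958673 and reaching into C1qtnf3, held 18 control peaks and met 12 irradiated ones.

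**Figure D3:**
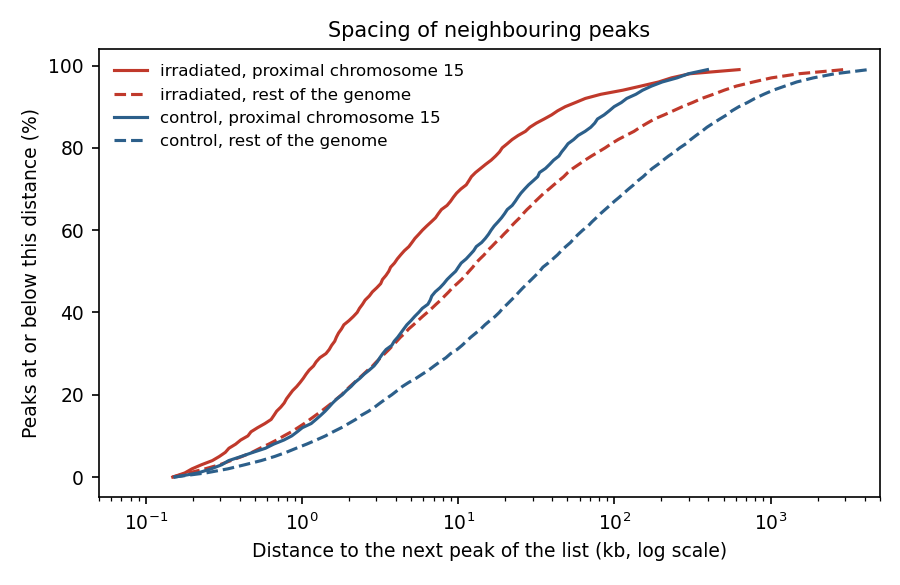
Share of peaks (y axis, percent) whose next peak of the same list lies at or below a distance (x axis, kb, log scale), with solid lines for proximal chromosome 15 and broken lines for the rest of the genome. The solid irradiated line crosses 50% at 3597.5 bp and the solid control line at 9639 bp.

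The shares of the lists that overlapped each other were nearly equal, which largely follows from the nearly equal lengths of the lists here. Of irradiated peaks 348 (29.1%, 26.5 to 31.7) overlapped a control peak by at least 1 bp, where 13.3% of the whole irradiated list did and 12.005% (11.5 to 12.5) of it outside the segment; on distal chromosome 15 the share was 19.6% (17.7 to 21.6). Of control peaks 344 (29.1%, 26.5 to 31.8) overlapped an irradiated peak, where 21.4% of the whole control list did and 20.3% (19.5 to 21.2) outside the segment. On distal chromosome 15 the control share was 29.8% (27.2 to 32.6), as high as here. Both lists were denser here than in the rest of the genome, and the part of density in these shares was not tested. With a reciprocal overlap of 50% the shares were 16.0% of irradiated and 16.1% of control peaks. In 305 pairs that overlapped 1 to 1, the ratio of the irradiated to the control fold had a median of 1.12 (quartiles 0.960 and 1.36), and the irradiated fold was the higher in 209 (68.5%, 63.0 to 73.7). Outside the segment the ratio was 1.14, with the irradiated fold higher in 69.8% of pairs. The lowest fold that could be listed at the lowest background also differed between the lists by 1.14 times. In the 12 pairs with both q at most 0.05 the ratio was 0.991. Summits of a pair lay a median of 179 bp apart (quartiles 72 and 332), against 136 bp outside the segment.

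The strongest irradiated peak, at 12048593 to 12049276 and 52.6 kb from Sub1, rested on 25 reads with a fold of 8.32 (q 1.77e-08) and overlapped a control peak. Next came peaks in Lifr (7122212 to 7123229, 22 reads, fold 7.07, q 7.68e-07) and in the 5′ part of Pdzd2 (12725568 to 12727690, 20 reads, fold 7.09, q 1.12e-06, with 4 summits). A peak 303 kb from Basp1 (25059870 to 25060197) had the same fold as the one in Pdzd2, and one 4.04 kb from Odf1 (38213464 to 38215164) a fold of 6.87 (q 6.38e-06). The strongest control peak, at 8828136 to 8828557 in the noncoding gene Gm31340, rested on 18 reads with a fold of 6.10 (q 4.44e-05) and met no irradiated peak. The others lay near Ankrd46 (36437691 to 36438656, fold 5.81), in Lifr (7123449 to 7123868, fold 5.25), in Marchf11 (26399850 to 26400300, fold 5.98) and in Npr3 (11868790 to 11870001, fold 6.01). The irradiated and the control peak named in Lifr lay side by side without overlap. The control peak overlapped another irradiated peak, while the irradiated peak overlapped no control peak.

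Genes were called marked when a peak lay in them or within 2000 bp, whatever its strength. Of 154 protein-coding genes, 38 (24.7%) had an irradiated peak, where 8.19% of all 21896 protein-coding genes did. A control peak marked 57 (37.0%), where 6.05% of all did. Both lists marked 30 genes (19.5%; whole genome 3.67%), the irradiated list alone 8 (5.19%; 4.53%) and the control list alone 27 (17.5%; 2.38%). With peaks of a −log10 p from 5 upward 19 genes were marked in both lists, 6 in the irradiated and 4 in the control list alone. At a q of at most 0.05 there were 12 in both, 9 in the irradiated and 2 in the control list alone. The excess of genes marked in the control list alone was thus seen only with weak peaks included. Gene shares of the whole genome were not computed at these thresholds. Outside the segment a −log10 p of at least 5 left 3982 of 14894 irradiated and 923 of 8683 control peaks. Genes marked in both lists had a median length of 136 kb, those in the control list alone 129 kb, those in the irradiated list alone 23.2 kb and unmarked genes 23.4 kb.

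The genes with the most peaks were Pdzd2 and Egflam. Pdzd2, which encodes a protein with several PDZ domains (12359711 to 12739968), held 49 irradiated and 28 control peaks, a density of 12.8 irradiated and 7.29 control peaks per 100 kb, and 19 of the irradiated ones met a control peak. Egflam, which encodes pikachurin of the photoreceptor synapse (7206120 to 7398744), held 37 irradiated and 29 control peaks, a density of 18.8 irradiated and 14.7 control peaks per 100 kb, with 14 irradiated peaks shared. Fbxl7, an F-box gene of the ubiquitin ligase system (26540454 to 26895564), held 30 irradiated and 31 control peaks, and Marchf11, a membrane-bound ubiquitin ligase (26309048 to 26409586), 13 irradiated and 15 control peaks. At a −log10 p of at least 5, Pdzd2 held 17 irradiated and 5 control peaks, Egflam 13 irradiated and 8 control, Fbxl7 10 irradiated and 3 control, and Marchf11 8 irradiated and 3 control peaks.

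**Figure D4:**
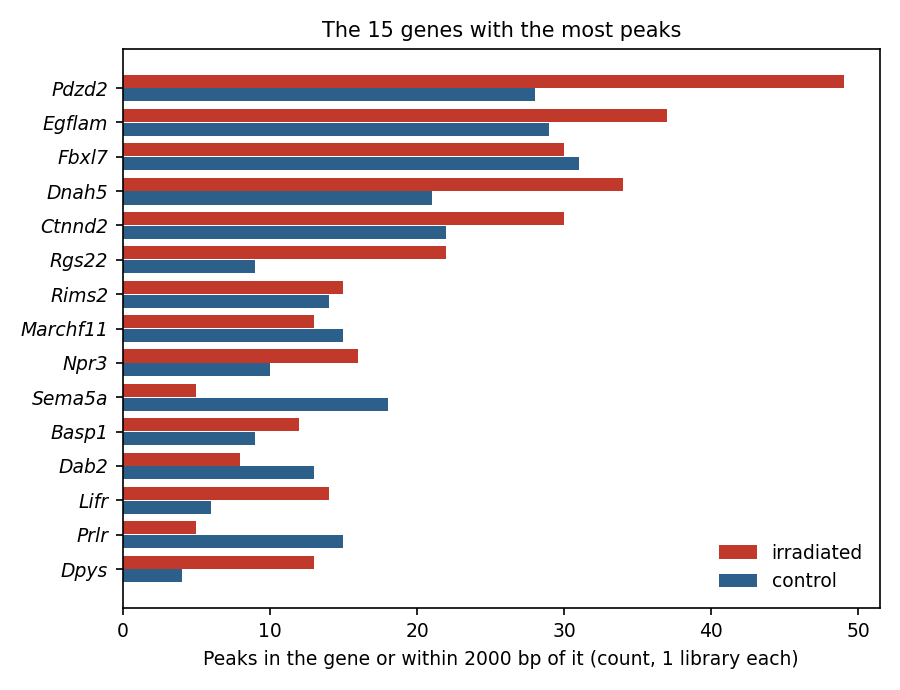
Peaks in each gene or within 2000 bp of it (x axis, count), irradiated above control, for the 15 genes with the most peaks of both lists together, 1 library per bar. Pdzd2 leads with 49 irradiated and 28 control peaks, while Sema5a, Prlr, Dab2, Marchf11 and Fbxl7 hold more control than irradiated peaks.

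Receptor genes for hormones and cytokines had the highest control density of the 9 lists, 44.4 irradiated and 49.5 control peaks per Mb of gene span. Of 9 genes of this list, 3 (33.3%) were marked in the irradiated list and 7 (77.8%) in the control list, against 24.7% of all 154 genes in the irradiated and 37.0% in the control list, with 35 irradiated and 39 control peaks in all. At a −log10 p of at least 5, 3 of the 9 were marked in each list, with 13 irradiated and 10 control peaks. Of all 154 genes, 25 were marked in the irradiated and 23 in the control list at that threshold. Npr3, the clearance receptor for natriuretic peptides (11839896 to 11907837), held 16 irradiated and 10 control peaks, or 22.2 irradiated and 13.9 control peaks per 100 kb. Lifr, a signalling receptor for cytokines of the interleukin 6 family (7090610 to 7197489), held 14 irradiated and 6 control peaks, of which 5 irradiated and 4 control peaks overlapped one of the other list. Prlr, the prolactin receptor gene (10177238 to 10349190), held 5 irradiated and 15 control peaks, and 1 of each at a −log10 p of at least 5. Ghr, the growth hormone receptor gene (3317755 to 3583352), held 0 irradiated and 5 control peaks, with a highest fold of 3.75 and a q of 0.385. Osmr and Il7r, receptors for oncostatin M and interleukin 7, and Trhr, the receptor for thyrotropin-releasing hormone, held 1 control peak each and no irradiated peak; Ptger4 and Rxfp3 held none.

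Genes of motile cilia and sperm had the highest irradiated density of the lists. Of 9 genes, 6 (66.7%) were marked in the irradiated and 5 (55.6%) in the control list, against 24.7% of all 154 genes in the irradiated and 37.0% in the control list, with 67 irradiated and 37 control peaks, or 74.9 irradiated and 41.4 control peaks per Mb of gene span. Over all 154 protein-coding genes the densities were 20.5 irradiated and 19.8 control peaks per Mb. Dnah5, an axonemal dynein heavy chain gene (28154854 to 28472045), held 34 irradiated and 21 control peaks, and 11 irradiated and 3 control peaks at a −log10 p of at least 5. Rgs22, a regulator of G-protein signalling known from the testis (35960508 to 36140572), held 22 irradiated and 9 control peaks, with a highest fold of 6.44 (q 0.000173) in the irradiated and 4.41 (q 0.0709) in the control list. Ttc23l held 6 irradiated and 2 control peaks, and Capsl 2 irradiated and 3 control peaks. Dnah5 and Rgs22 held 56 of the 67 irradiated peaks of the list.

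Neuronal and glial genes were marked in 5 of 14 cases (35.7%) in each list, against 24.7% of all 154 genes in the irradiated and 37.0% in the control list, with 78 irradiated and 55 control peaks, most of them in Pdzd2. Basp1, a growth cone protein gene (25363277 to 25413764), held 12 irradiated and 9 control peaks, or 22.0 irradiated and 16.5 control peaks per 100 kb. Rims2, a scaffold gene of presynaptic release sites (39198286 to 39684372), held 15 irradiated and 14 control peaks, with a highest fold of 5.46 in the irradiated and 5.15 in the control list. Kcns2, a modifier subunit gene of potassium channels, held 1 irradiated peak just outside the gene with a q of 0.0536. The glial glutamate transporter gene Slc1a3 held no peak in either list.

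The type II cadherin genes all lay within 13 to 24 Mb, the segment chosen after its values were seen. Their cytoplasmic partner gene Ctnnd2 lay in the denser block from 24 to 41 Mb. Gene type and position therefore cannot be told apart in the numbers that follow. Ctnnd2, which encodes delta-catenin of neuronal junctions (30172534 to 31029344), held 30 irradiated and 22 control peaks. The 5 type II cadherin genes, cell adhesion genes of the nervous system and other tissues, held 1 irradiated and 16 control peaks together. Cdh12 held 1 irradiated and 6 control peaks, Cdh18 0 irradiated and 5 control, Cdh9 0 irradiated and 3 control, and Cdh6 and Cdh10 0 irradiated and 1 control peak each. Cdh12 and Cdh18 each had 1 control peak at a −log10 p of at least 5, with a fold of 4.40 (q 0.0823), and 0 irradiated peaks at that threshold.

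Genes of the extracellular matrix, secreted factors and guidance were marked in 5 of 12 cases (41.7%) in the irradiated and 7 (58.3%) in the control list, where all 154 genes gave 24.7% in the irradiated and 37.0% in the control list. They held 52 irradiated and 61 control peaks, or 30.0 irradiated and 35.2 control peaks per Mb, against 20.5 irradiated and 19.8 control peaks over all genes. Egflam alone held 37 of these irradiated and 29 of these control peaks, so the densities of the list rested largely on it. C1qtnf3, a secreted factor gene related to complement C1q (10952119 to 10980162), held 8 irradiated and 7 control peaks, or 25.0 irradiated and 21.8 control peaks per 100 kb. Sema5a, an axon guidance gene (32244813 to 32696341), held 5 irradiated and 18 control peaks, but 3 of each at a −log10 p of at least 5. Fzd6, a Wnt receptor gene, held 1 irradiated peak with a fold of 4.19 (q 0.0478) and no control peak. Gdnf, which encodes a neurotrophic factor, held none, and its start windows held 11 and 22 CG.

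The complement and leukocyte gene lists held 1 peak past a −log10 p of 5, a control peak in Fyb. Terminal complement genes were marked in 0 of 3 cases in the irradiated list and 2 in the control list, with 3 control peaks in C7 and 1 in C9, all below a −log10 p of 5. Of 6 leukocyte and immune genes, among them Il7r and Ptger4 of the receptor list, 2 (33.3%) were marked in each list. Of all 154 genes, 24.7% were marked in the irradiated and 37.0% in the control list, so the share of leukocyte genes lay near these. Fyb, an adaptor gene of T cells and platelets (6522796 to 6665608), held 5 irradiated and 11 control peaks, with a highest fold of 4.01 (q 0.0536) in the irradiated and 4.53 (q 0.0236) in the control list. Dcstamp, a gene of osteoclast fusion, held 3 irradiated peaks, the strongest with a q of 0.104, and no control peak. Dab2, an endocytic adaptor gene next to C9 (6299788 to 6440715), held 8 irradiated and 13 control peaks, with a q of 0.0119 at the strongest irradiated and 0.0236 at the strongest control peak.

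Of 5 developmental transcription factor genes, 2 (40%) were marked in each list, where 24.7% of all 154 genes were marked in the irradiated and 37.0% in the control list. They held 2 irradiated and 10 control peaks, or 3.19 irradiated and 15.9 control peaks per Mb. Zfpm2, a GATA cofactor gene (40655042 to 41104592), held 1 irradiated and 9 control peaks, and 1 of each at a −log10 p of at least 5. Grhl2, an epithelial regulator gene, held 1 overlapping peak in each list, with a fold of 2.95 in the irradiated and 2.88 in the control list. Osr2 and Klf10 held no peak in either list.

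Widely expressed genes held few peaks. Of 28 genes, among them ribosomal protein and translation genes, 0 had an irradiated peak, which allows a share of up to 10.7%, and 6 (21.4%) had a control peak. Of all 154 genes, 24.7% were marked in the irradiated and 37.0% in the control list. Over the 2.52 Mb of span of the 28 genes there were 0 irradiated and 2.77 control peaks per Mb. Over all protein-coding genes of the segment there were 20.5 irradiated and 19.8 control peaks per Mb. Of the 7 control peaks, 2 lay in Ywhaz, a 14-3-3 protein gene. The highest fold was 3.75, in Oxr1, a gene of the response to oxidative stress, and 0 of the 7 reached a −log10 p of 5. Genes of this list were shorter than those marked in both lists, with a median of 35.4 kb.

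**Figure D5:**
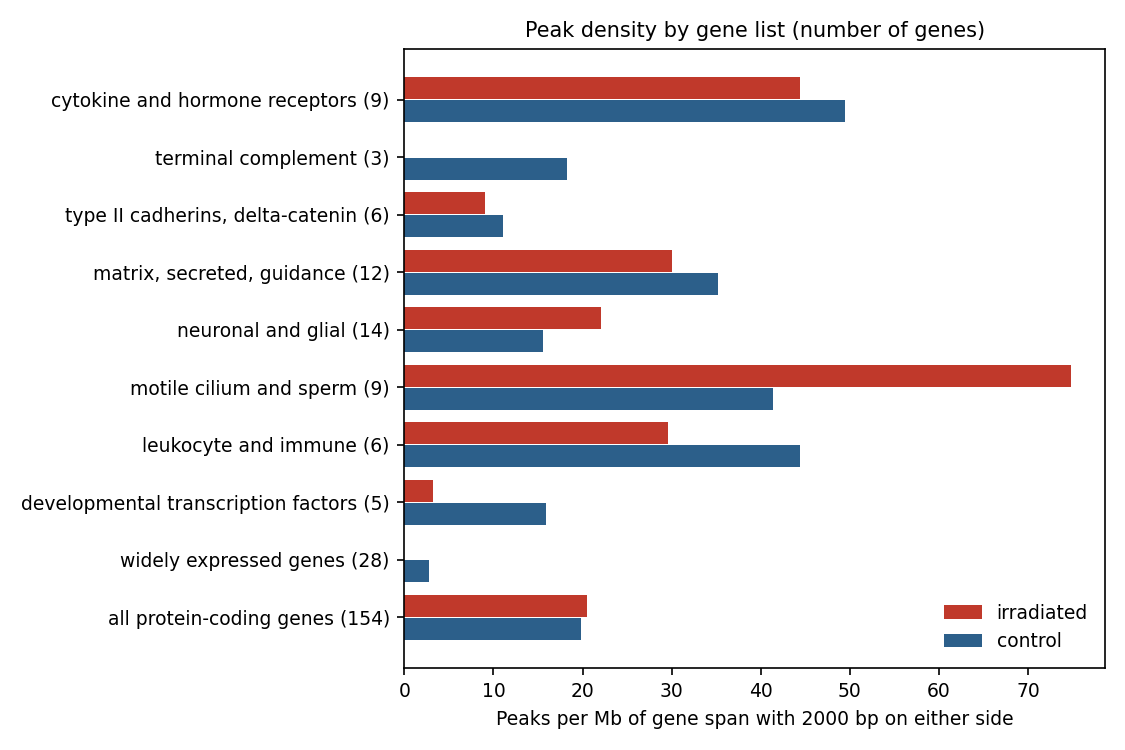
Peaks per Mb of gene span with 2000 bp on either side (x axis), irradiated above control, for 9 gene lists and for all 154 protein-coding genes of proximal chromosome 15, with the number of genes in brackets. Motile cilium and sperm genes reach 74.9 irradiated and 41.4 control peaks per Mb, and widely expressed genes 0 irradiated and 2.77 control peaks per Mb.

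Genes marked in the irradiated list alone were Otulinl, Dcstamp, Snx31, Odf1, Fzd6 and Kcns2, with Fbxo43 and Ankrd33b completing the 8. Otulinl, a relative of a deubiquitinase gene (27655070 to 27681603), held 4 peaks, the strongest with 18 reads and a fold of 5.01 (q 0.00818). Snx31, a sorting nexin gene, held 3 peaks with a lowest q of 0.313, and Odf1, a sperm tail gene, 2 with a lowest q of 0.149. Among the genes marked in the control list alone, Cdh18 and Ghr held 5 peaks each, Adamts12, a metalloprotease gene (11064773 to 11349232), held 4, and Agxt2, a mitochondrial aminotransferase gene, C7 and Cdh9 held 3 each. Apart from Cdh18, none of these 6 had a control q below 0.385. Dpys, an enzyme gene of pyrimidine breakdown (39768485 to 39857470), was marked in both lists, with 13 irradiated and 4 control peaks. A gene without a listed peak may carry the mark below the calling threshold.

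At the 50 Mb limit the peaks thinned out in both lists. The last irradiated peak inside it, at 48818740 to 48819130, had a fold of 3.51 and the first outside, at 51631851 to 51632120, a fold of 3.36. The last control peak inside, at 49438825 to 49439108, had a fold of 3.43 and the first outside, at 50180583 to 50181131, a fold of 2.98.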

How the data were processed

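Per the labels' protocols, GL261 cells were fixed with 1% formaldehyde, and chromatin of 300 to 500 bp was precipitated with an H3K27me3 antibody and sequenced in 150-bp read pairs. BWA, deepTools and mm10 stand in the submitters' processing notes; no peak caller is given in the sources used here. The authors deposited 1 peak list per library, with positions (other values, in bp), a score (10 times the −log10 p, cut to a whole number), the fold (a ratio) at the summit, and the −log10 p-value and −log10 q-value. The largest deposited p was 0.00499 in the irradiated and 0.00495 in the control list. Further summits of an interval (679 irradiated and 215 control lines) were merged with it. Whole reads were recovered from fold and p with a Poisson model within a tolerance of 0.001 for 100% of intervals of both lists; the library totals are unknown. The recovery and the overlap count were tested on simulated data. Genes and start windows came from RefSeq on GRCm38.p6; 28 of 41 named genes had a start window. Analyses used Python 3.11.15, pandas 2.3.3 and scipy 1.17.1. The members and gene lists were chosen with earlier results of these data known. Named genes were the 15 with the most peaks, the 6 with the most peaks in each list alone, and up to 4 marked members of each gene list, predicted genes left out; named bins were the 8 fullest and the 3 of highest and of lowest irradiated share; named peaks were the 5 strongest of each list. Others were named, after their values were seen, to complete a count or a locus. No test between conditions was made, with 1 library each.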

Additional observations from a re-analysis of the deposited data

How the results depend on the processing

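With 1 library per group no replicate could be left out. No paired analysis was possible because the labels give no replicate numbers and the results come from no test. Of 99 alternative values, 39 stayed within 1.5 times the reported count or within its 95% interval, and 60 did not; those are given here. At a q of at most 0.05 there were 268 irradiated peaks (10.9% of the list) and 94 control peaks (13.9%), an irradiated share of 74.0%, overlaps of 5.97% of irradiated and 17.0% of control peaks, median folds of 4.92 (irradiated) and 4.72 (control), 12 genes marked in both lists, 2 by control peaks alone, 27 bins with more irradiated peaks and a pair ratio of 0.991. At a −log10 p of at least 5 there were 430 irradiated (9.75%) and 173 control peaks (15.8%), a share of 71.3%, overlaps of 8.37% of irradiated and 19.7% of control peaks, a fold of 4.53 in each list, 19 genes marked in both lists, 4 by control peaks alone and 30 bins. With equal numbers of peaks the segment held 8.64% of the irradiated list, the irradiated share was 41.9%, the overlaps 32.5% of irradiated and 23.3% of control peaks, the irradiated fold 4.16, with 5 genes in the irradiated list alone and 6 bins. With at least 10 reads there were 771 control peaks, 8.17% of the irradiated and 15.3% of the control list, an irradiated share of 57.4%, an irradiated overlap of 23.9%, folds of 3.98 (irradiated) and 3.75 (control) and 15 genes in the control list alone. At a background of at most 1.5 times the lowest the segment held 6.98% of the irradiated list, the irradiated share was 46.2%, the control overlap 23.1%, the folds 4.10 (irradiated) and 3.60 (control), with 5 genes in the irradiated list alone. Merging within 1000 bp gave 6.56% of the irradiated list and an irradiated share of 46.7%. Merging within 5000 bp gave 518 irradiated (5.18%) and 732 control peaks (9.89%) and a share of 41.4%. A reciprocal overlap of 50% gave overlaps of 16.0% of irradiated and 16.1% of control peaks, and a distance of up to 1000 bp 42.4% of irradiated and 40.2% of control peaks. Bins of 500 kb gave 24 of 91 with more irradiated peaks. In the stretch without irradiated peaks 8 control peaks were left at a −log10 p of at least 5 and 3 at a q of at most 0.05, alternatives chosen after seeing the data. The stricter thresholds leave fewer peaks by construction; the cause of the other differences was not tested. With medians of 12 reads at irradiated and 10 at control peaks, the depth limits what a single site can show.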

Other observations

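Bins with more protein-coding genes held more peaks of both lists, with a Spearman correlation across 47 bins of 0.660 for irradiated and 0.596 for control peaks; the bins share the libraries, so this is a description. Beyond the genes of the rule, Ugt3a1, a glycosyltransferase gene (9279822 to 9315038) chosen after its values were seen, held 3 irradiated and 5 control peaks, with a highest fold of 6.31 (q 3.86e-05) in the irradiated and 4.50 (q 0.00797) in the control list, at different sites. Slc45a2, a melanocyte transporter gene (11000721 to 11029233) chosen in the same way, held 5 irradiated and 4 control peaks, or 15.4 irradiated and 12.3 control peaks per 100 kb, of which 0 overlapped between the lists. The noncoding gene Gm35081, next to Odf1, was met by peaks of both lists at 3 annotated start windows, each with 1 CG; at the last of them the fold was 3.68 in the irradiated and 4.22 in the control list, with 12 reads in each list.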
